A study of Mus musculus with 9 samples.

Results

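The question was whether mouse prostate epithelial cells without Rb answered the removal of serum differently from wild-type cells. The measure was the interaction of genotype and medium: the log2 change on serum withdrawal in the Rb-null line minus the log2 change on serum withdrawal in the wild-type line, for each probe set. A positive interaction means that the probe set rose more, or fell less, in the Rb-null line, and a negative one that it rose less or fell more. All 9 of the 9 arrays entered it. The 4 groups were a wild-type prostate epithelial cell line kept in RPMI-1640 medium with 5% fetal bovine serum (3 arrays), the same line after 48 hours without serum (2 arrays), an Rb-/- line in medium with serum (2 arrays) and the Rb-/- line after 48 hours without serum (2 arrays). The wild-type line was the control of the study, and no other allele or agent was named for either line. Each genotype was a single line, so a difference between lines cannot be told apart from a difference between genotypes. Whether a group's arrays stem from independent cultures is not stated, so p-values measure no more than the spread between these arrays, whose small number limits the precision.

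The retinoblastoma protein binds E2F transcription factors and keeps genes of DNA replication and cell division quiet until growth signals lead to its phosphorylation by cyclin-dependent kinases. Removing serum takes away those growth signals, and normal cells then leave the cycle and turn down replication and mitosis genes, in part through Rb and its relatives p107 and p130. In cells without Rb this brake is held by the relatives alone, which is why the response to withdrawal is a classical test of Rb function.

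Values are intensities after quantile normalisation, and 197 was the floor that stood for the limit of detection. The median of the deposited intensities was 445 on the dimmest and 474 on the brightest array. Rb1 itself read 714, 398 and 368 in wild-type cells with serum, 386 and 370 in those without, and 114, 110, 171 and 167 on the 4 Rb-null arrays, all of the latter below the floor, so its interaction of 0.32 (SE 0.34, adjusted p = 0.741) is the wild-type change with its sign turned. Without wild-type serum 1, the array that read 714, it was 0.017 (adjusted p = 0.970). Wild-type serum 1 stood apart, with rank correlations across probe sets of 0.974 and 0.969 with the other wild-type serum arrays, which correlated at 0.995. The luminal keratins Krt8, Krt18 and Krt19 lay between 6270 and 12815 on every array, as did the epithelial genes Cdh1 and Epcam between 1095 and 2254, and 6 of 7 basal markers were above the floor on all arrays. Markers of other cell types were mixed. Of 5 smooth muscle markers, Acta2, Cnn1 and Myh11 lay below the floor on all arrays, and Tagln (373 to 616) and Des (600 to 850) above it. Of 4 leukocyte markers on the array, Ptprc and Lyz2 lay below the floor, and Cd3e (743 to 994) and Itgam (291 to 565) above it. All 4 fibroblast markers were above it on every array, from Dcn (202 to 225) to Col1a2 (899 to 1463), as were Pecam1 and Kdr of endothelium and Chga of neuroendocrine cells. None of the tested markers in this panel had a called interaction, while a longer basal list, described further on, held 2 called genes.

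Large withdrawal responses mostly went the same way in both lines, and the difference between the lines was called for few probe sets. Of 9686 probe sets tested, 1536 (15.9%) changed in the wild-type line at an adjusted p under 0.05, 640 up (6.61%) and 896 down (9.25%). In the Rb-null line 1348 (13.9%) changed, 726 up (7.5%) and 622 down (6.42%). The interaction passed the same threshold for 90 probe sets, 0.929% of those tested, with 44 higher (0.454%) and 46 lower (0.475%) in the Rb-null line. At an unadjusted p under 0.05 there were 1059. Without wild-type serum 1 the interaction called 255 probe sets (2.64% of 9654), and all 90 were among them. Without any other single array it called 12 to 59, in fits where some groups had 1 array left, and 9 of the 90 kept their call whichever array was left out. Those 9 were both probe sets of Tnc, Hspa1a, Fst, Anxa8, Mgst1, Ifi202b, Pkhd1 and a probe set without a gene name. Mgst1 passed the filter only through the group where it was high, as given with its values.

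Over the 9108 probe sets measured above the floor in both lines, the responses of the 2 lines had a rank correlation (Spearman) of 0.501, or 0.623 without wild-type serum 1. This is a correlation across probe sets, which are not independent replicates. Among these probe sets 794 were called in both, and 785 of these moved in the same direction. Of 143 probe sets that were called in the wild-type line and changed there at least 2-fold, 99.3% had the same sign in the Rb-null line. Their median size was 1.34 in the wild-type line on the log2 scale. In the Rb-null line their median change, counted in the wild-type direction, was 1.19. Of 144 that were called in the Rb-null line and changed there at least 2-fold, 95.8% had the same sign in the wild-type line. Their medians, taken the same way, were 1.33 in the Rb-null and 1.09 in the wild-type line. The interaction had a standard deviation of 0.24 over the 9108 probe sets measured in both lines.

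**Figure D1:**
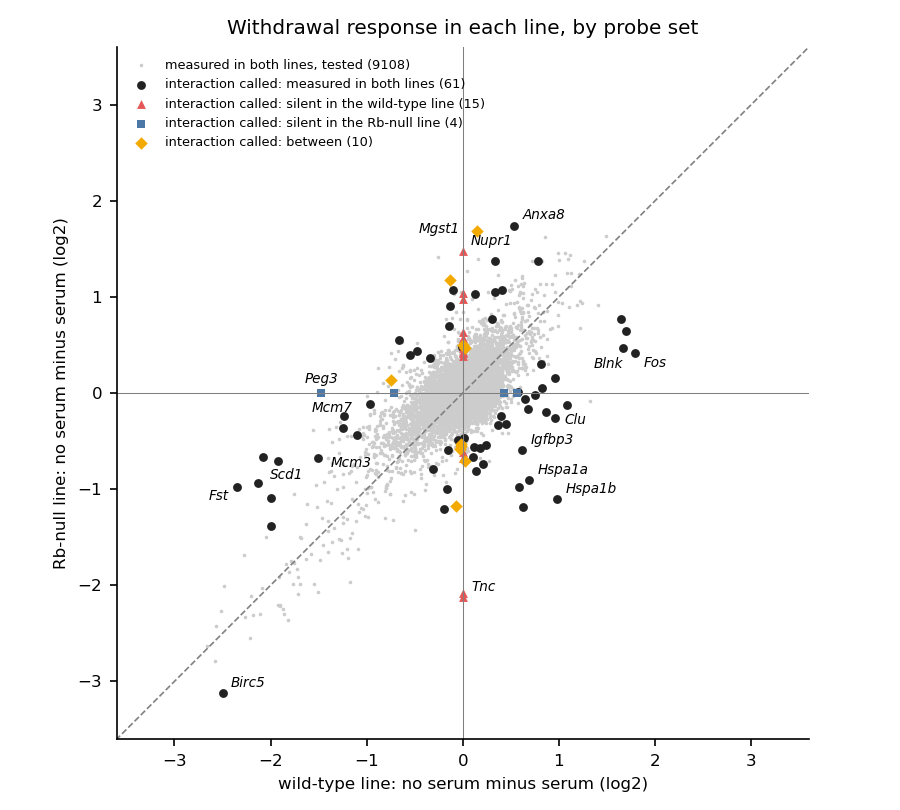
Log2 withdrawal response (no serum minus serum) of each probe set in the wild-type line (horizontal) and the Rb-null line (vertical). Grey points are the 9108 tested probe sets measured in both lines, coloured points are the 90 with a called interaction by class, and the dashed line marks equal responses. The points far from the centre lie mostly in the quadrants of equal direction, and Tnc, Nupr1 and Peg3 sit on an axis because 1 line was at the floor.

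Probe sets measured in both lines were kept apart from those silent in 1 line, because for the latter the interaction holds no more than the response of the other line. A line counted as measured where all arrays of at least 1 medium lay above the floor, and as silent where all its arrays lay at or below it. Measured in both lines were 9108 probe sets, with 61 called (0.67%), 26 higher and 35 lower. Silent in the wild-type line were 86, with 15 called (17.4%), and silent in the Rb-null line were 72, with 4 called (5.56%). Another 420 lay between these classes, with 10 called (2.38%). In the silent classes the floor removes the spread of the silent line, which narrows the error of the test. With no floor, 6 instead of 15 and 1 instead of 4 of them were called.

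The 61 called probe sets measured in both lines took several forms. In 18 the change was called in the Rb-null line and not in the wild-type line, and in 15 the reverse, where the interaction itself is the test of the difference. In 20 both lines changed in the same direction, with the larger change in the wild-type line for 13 and in the Rb-null line for 7. In 8 both lines changed in opposite directions, out of 9 such probe sets among all those measured in both lines. The named genes among these 8 were Hspa1a, Hspa1b, Igfbp3 and Cxcl5, which rose in the wild-type and fell in the Rb-null line, and Rfc1 and Sh3bgrl2, which did the reverse.

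Genes of DNA replication are the classical targets of E2F, and 2 of them, Mcm3 and Mcm7, had a called higher interaction here on their brightest probe set. Rfc1, described below, was called higher on its dimmer probe set only. Mcm3 and Mcm7 encode subunits of the MCM complex, the hexameric helicase that is loaded at origins and unwinds DNA in S phase. Their promoters are shown because both hold matches to an E2F motif. RefSeq promoter sequences (GRCm38.p6, 250 bases before to 50 after the annotated start) were searched on both strands for TTTCGCGC, TTTGGCGC and TTTCCCGC, which can overlap when they face each other. The match is in capitals, in the direction of the gene, and positions are counted from the start. The windows of 30 bases are the first Mcm3 match at positions 20 to 27 (chr1:20820275-20820304, minus strand) and Mcm7 at positions -165 to -158 (chr5:138172030-138172059, minus strand) and 17 to 24 (chr5:138171849-138171878, minus strand).
Mcm3: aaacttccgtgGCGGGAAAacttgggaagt
Mcm7 upstream: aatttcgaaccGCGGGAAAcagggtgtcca
Mcm7 downstream: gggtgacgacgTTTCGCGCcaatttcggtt
Mcm3 held a second match, TTTGGCGC at positions 39 to 46, whose window overlaps the first and is not printed. For Mcm7 there were 2 promoters, and 1 of them held both matches. Such a match was present for 573 of 27025 genes in the table (2.12%), for 13 of 41 replication genes with a promoter (31.7%), for 1 of 29 mitosis genes (3.45%), for 2 of 26 genes with a called higher interaction (Mcm3 and Mcm7) and for 0 of 32 with a called lower one. Mcm5 and Mcm6 also held matches and Mcm2 held none in this window. A match describes letters and not binding.

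Mcm7 fell by 0.97 (SE 0.09) on the log2 scale in the wild-type line, and its change in the Rb-null line was -0.11 (SE 0.10, adjusted p = 0.620). Its intensities were 2441, 2094 and 2319 with serum and 1117 and 1217 without it in the wild-type line, and 2631 and 2327 with serum and 2221 and 2369 without it in the Rb-null line. In this order, serum before serum-free, the values of other genes follow. The wild-type serum-free arrays lay below all other arrays, and the Rb-null groups overlapped. The interaction was 0.86 (SE 0.14, adjusted p = 0.0228). Mcm3 fell in both lines and less in the Rb-null line. On its main probe set it read 2744, 2580 and 2866, then 946 and 969 in the wild-type line, against 3213 and 3101, then 1839 and 2108 in the Rb-null line. Serum and serum-free arrays did not overlap in either line, and the Rb-null serum-free arrays lay above the wild-type serum-free ones. The fall was 2.85-fold in the wild-type and 1.60-fold in the Rb-null line (interaction 0.83, SE 0.12, adjusted p = 0.0170), and the other Mcm3 probe set gave 1.42 (SE 0.24, adjusted p = 0.0312). The Mcm7 call was lost without any 1 array other than wild-type serum 1 and 2, with adjusted p between 0.0548 and 0.176. The Mcm3 calls were lost without either wild-type serum-free array, either Rb-null serum array or Rb-null serum-free 2 (0.0667 to 0.139 on the main probe set, and 0.105 to 0.221 on the other, which was also lost without Rb-null serum-free 1).

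Across the replication list, 31 of 46 tested genes fell in the wild-type line and 27 fell in the Rb-null line, with median responses of -0.62 and -0.39. Over all probe sets tested, 9.25% and 6.42% fell. By brightest probe set the interaction was called higher for 2 (Mcm3 and Mcm7), lower for 1 (Dbf4) and for neither in 43, beside 0.454% higher and 0.475% lower of all probe sets. The list's median was 0.07, beside -0.02 over all tested probe sets. Without wild-type serum 1 the median was -0.01. That fit called 136 of 9654 probe sets higher and 119 lower, and of the list's genes 9 higher and 3 lower. The additional higher ones were Mcm2 at 0.59 and Mcm4 at 0.54 of the same helicase, Prim1 at 0.90 and Pola1 at 0.81 of the polymerase alpha-primase that starts new strands, the sliding clamp Pcna at 0.47, the single-strand binding protein Rpa1 at 0.42 and the maintenance methyltransferase Dnmt1 at 0.53. The additional lower ones were Cdc7, the kinase that fires origins, at -0.40 and Pole2, a polymerase epsilon subunit, at -0.46. For Dbf4, Cdc7 and Pole2 the serum-free arrays of both lines lay below the floor, so their interactions hold the difference between the lines in serum and not a measured difference in response. On all 9 arrays Prim1 stood at 1.03 (adjusted p = 0.0524), Pola1 at 0.97 (0.0905), Mcm2 at 0.66 (0.0715), Mcm4 at 0.62 (0.119) and Pcna at 0.54 (0.118).

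Other replication genes fell in both lines without a called interaction, with values on either side of 0. For the flap endonuclease Fen1 the responses were -1.62 in the wild-type and -1.15 in the Rb-null line (interaction 0.47, adjusted p = 0.322), and for Cdc6, which loads the helicase, -1.90 and -2.20 (interaction -0.30, adjusted p = 0.550). Rrm2, a ribonucleotide reductase subunit, changed by -2.52 in the wild-type and -2.27 in the Rb-null line (interaction 0.25, adjusted p = 0.575). For Top2a, the topoisomerase that separates sister chromatids, the responses were -2.26 and -2.32 (interaction -0.06, adjusted p = 0.835), and for the thymidine kinase Tk1 -1.04 and -1.20 (interaction -0.17, adjusted p = 0.640). Mcm5 had probe sets that differed, one at 0.51 (adjusted p = 0.150) with falls in both lines and one at -0.12 (adjusted p = 0.760) with a change called in neither. Rfc1, the large subunit of the clamp loader, had opposite responses on a probe set close to the floor, with values from 181 to 275 over all arrays (interaction 0.70, adjusted p = 0.0218), and read 0.28 (adjusted p = 0.620) on its brighter probe set. Dbf4, the partner of Cdc7, was called at -1.11 (SE 0.14, adjusted p = 0.0105), but the wild-type serum arrays read 223, 196 and 199, at the floor, and with no floor the value was 0.07.

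**Figure D2:**
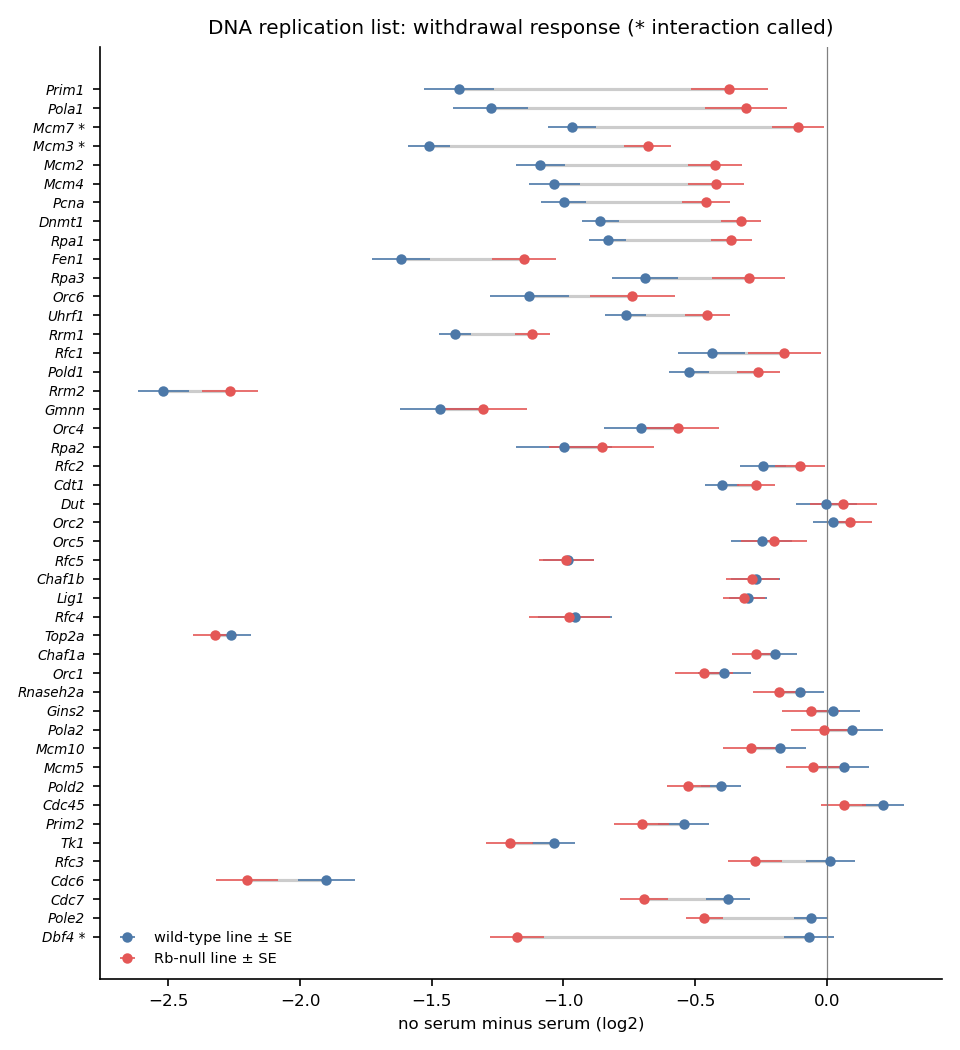
Withdrawal response (log2, no serum minus serum, with SE) of the 46 tested genes of the DNA replication list in the wild-type line (blue) and the Rb-null line (red), ordered by the interaction, which grey bars span. Asterisks mark called interactions; Prim1, Pola1, Mcm7, Mcm3 and Mcm2 fell less in the Rb-null line by value, and Top2a, Rfc4 and Rfc5 nearly coincide.

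Genes of mitosis fell in both lines, by more than those of replication in median. Of 37 tested members 31 fell in each line, with medians of -1.58 in the wild-type and -1.73 in the Rb-null line. Over all probe sets tested, 9.25% fell in the wild-type and 6.42% in the Rb-null line. The interaction was called for 1, lower, beside 0.475% of all probe sets, with a median of -0.16 over the list. That gene was Birc5, which encodes survivin, a subunit of the chromosomal passenger complex. It read 2369, 2273 and 2175, then 389 and 414 in the wild-type line, and 2954 and 2828, then 326 and 337 in the Rb-null line. The groups did not overlap, and the Rb-null line was the higher in serum and the lower without it. Birc5 fell 5.66-fold in the wild-type and 8.71-fold in the Rb-null line (interaction -0.62, SE 0.11, adjusted p = 0.0470). The call was kept without wild-type serum 1 and lost without any other single array, with adjusted p from 0.0887 to 0.260, and with no floor the same value gave 0.0559. Without wild-type serum 1, 5 mitosis genes were called lower by their brightest probe set, beside 119 of 9654 probe sets. The list's median in that fit was -0.22.

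The mitotic kinase Cdk1 changed by -1.58 and -1.67 (interaction -0.10, SE 0.12, adjusted p = 0.755), and cyclin A2 (Ccna2) by -1.08 and -1.24 (interaction -0.16, SE 0.11, adjusted p = 0.620). Of the Rb family and its partners, Rbl1, which encodes p107, fell in the wild-type line by 0.98 and stood at -0.35 (adjusted p = 0.0922) in the Rb-null line, with an interaction of 0.63 (adjusted p = 0.150). Rbl2, which encodes p130, stood at 0.37 (adjusted p = 0.201), E2f1 at -0.31 (adjusted p = 0.541) and at 0.01 on a probe set near the floor (adjusted p = 0.972) and cyclin E1 (Ccne1) at -0.05 (adjusted p = 0.876). Cyclin D1 (Ccnd1), the partner of the kinases that phosphorylate Rb, was called at -0.43 (SE 0.08, adjusted p = 0.0397) on its brighter probe set. There it read 7150, 7687 and 7781, then 7213 and 7335 in the wild-type line, whose media overlapped, and 5075 and 5173, then 3673 and 3656 in the Rb-null line, whose media did not. The dimmer probe set stood at 0.18 (adjusted p = 0.751), and the call of the brighter one was lost without any 1 array other than wild-type serum 1 (0.0604 to 0.252).

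The CDK inhibitor p21 (Cdkn1a) rose in both lines by nearly the same amount, 0.49 in the wild-type and 0.47 in the Rb-null line, with an interaction of -0.02 (SE 0.12, adjusted p = 0.946) and of 0.02 on its other probe set. For p27 (Cdkn1b) the interaction was -0.25 (SE 0.18, adjusted p = 0.626). The growth regulator Myc fell in the wild-type line by 0.78 and read 0.08 in the Rb-null line, an interaction of 0.85 with a wide error (SE 0.29, adjusted p = 0.290). Id2, which blocks helix-loop-helix transcription factors and is bound by Rb, rose in the Rb-null line by 0.52 and read 0.07 in the wild-type line (interaction 0.45, SE 0.12, adjusted p = 0.169).

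Among genes measured in both lines, the lowest interactions with opposite directions belonged to the inducible Hsp70 genes. Hspa1a and Hspa1b are neighbours on chromosome 17 that encode nearly the same chaperone, which refolds damaged proteins and is switched on by heat shock factor. Their promoters are shown to let a reader see how alike they are, from 250 bases before the start to the start, with the heat shock element core GAANNTTC in capitals, a motif chosen after the values were seen. Hspa1a lies at chr17:34972157-34972406 and Hspa1b at chr17:34959239-34959488, both on the minus strand of GRCm38.p6 in RefSeq.
Hspa1a: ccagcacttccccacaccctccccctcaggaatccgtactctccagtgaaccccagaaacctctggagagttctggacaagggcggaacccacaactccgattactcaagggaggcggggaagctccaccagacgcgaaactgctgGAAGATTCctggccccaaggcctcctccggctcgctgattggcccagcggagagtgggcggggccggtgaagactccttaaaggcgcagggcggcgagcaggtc
Hspa1b: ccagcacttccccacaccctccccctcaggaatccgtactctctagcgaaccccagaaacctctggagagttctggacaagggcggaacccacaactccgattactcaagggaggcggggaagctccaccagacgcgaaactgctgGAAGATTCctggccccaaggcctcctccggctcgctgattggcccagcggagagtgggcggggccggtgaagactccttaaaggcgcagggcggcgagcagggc
These stretches differed at 3 of 250 bases (98.8% identical). The palindromic core, read on both strands, occurred in the promoters of 9.04% of all genes. That share was counted over a longer window, which also holds the 50 bases after the start. Because the genes are so alike, their probe sets can share transcripts and are not independent measurements.

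Hspa1a read 302, 286 and 305 with serum and 468 and 491 without it in the wild-type line, against 608 and 631 with serum and 343 and 319 without it in the Rb-null line. In the wild-type line the serum-free arrays were the higher, in the Rb-null line the serum arrays were, without overlap in either. It rose 1.61-fold in the wild-type and fell 1.87-fold in the Rb-null line (interaction -1.59, SE 0.11, adjusted p = 0.000460), and kept its call without any single array. Hspa1b read 849, 650 and 641, then 1398 and 1400 in the wild-type line, and 1832 and 2147, then 1046 and 818 in the Rb-null line. It showed the same opposite pattern without overlap within a line, with a 1.98-fold rise and a 2.14-fold fall (interaction -2.08, SE 0.22, adjusted p = 0.00433), and its call was lost without wild-type serum-free 2 (adjusted p = 0.0513). Hspa1a and Hspa1b were the 2 called of 15 heat shock genes tested, both lower, beside 0.475% of all probe sets. The other 13 had no call, and the list's median was -0.06. Nearest to the threshold was Hsph1, a nucleotide exchange factor of Hsp70, at -0.61 (adjusted p = 0.0666), followed by the co-chaperone Dnajb1 at -0.42 (adjusted p = 0.380). The constitutive Hspa8 stood at -0.21 (adjusted p = 0.531) and Hsp90aa1 at -0.06 (adjusted p = 0.792).

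**Figure D3:**
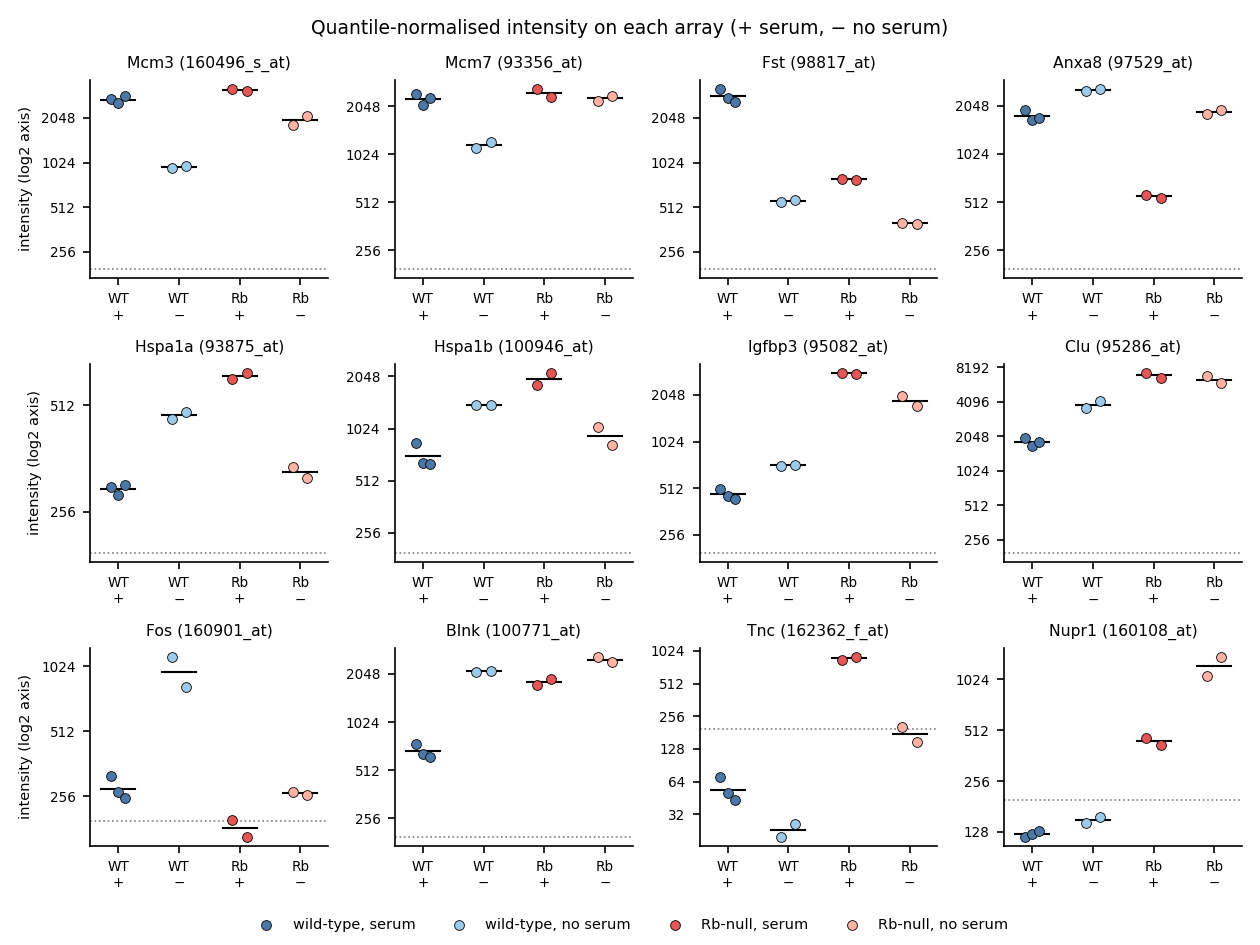
Quantile-normalised intensity (log2 axis) on each of the 9 arrays for 12 genes with a called interaction, with group means on the log scale as bars and the floor as a dotted line. WT and Rb mark the lines, + serum and − no serum. Hspa1a, Hspa1b and Igfbp3 go in opposite directions in the 2 lines, Mcm7 and Clu change in the wild-type line, and Tnc and Nupr1 lie below the floor on all wild-type arrays.

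Immediate-early genes, which serum and stress switch on within minutes, went both ways at 48 hours without serum. Of 31 tested, 11 rose and 3 fell in the wild-type line, and 4 rose and 3 fell in the Rb-null line. Among all probe sets 6.61% rose and 9.25% fell in the wild-type line, and 7.5% rose and 6.42% fell in the Rb-null line. The interaction was negative in value for 24 of the 31, beside 5341 of all 9686 probe sets tested, with a median of -0.20. It was called for 2, both lower, beside 0.475% of all probe sets, so for the other 29 a difference between the lines was not shown. Fos, a subunit of the AP-1 transcription factor, read 319, 268 and 252, then 1130 and 820 in the wild-type line, and 199 and 167, then 268 and 260 in the Rb-null line. The wild-type serum-free arrays were above all others, and the Rb-null serum arrays lay at or below the floor, so the Rb-null change of 0.42 (SE 0.15, adjusted p = 0.115) is bounded by it. Fos rose 3.46-fold in the wild-type line (interaction -1.37, SE 0.21, adjusted p = 0.0203). Rhob, a small GTPase of endosomes and the cytoskeleton, rose 1.57-fold in the wild-type line and stood at -0.06 in the Rb-null line (interaction -0.71, SE 0.13, adjusted p = 0.0487, or 0.0559 with no floor). Egr1, a zinc finger factor, rose in both lines, by 1.40 and 0.92 (interaction -0.49, SE 0.16, adjusted p = 0.269), and Ccn1, a matricellular protein, stood at -0.93 (adjusted p = 0.0592). The Fos call was lost without wild-type serum 2, wild-type serum-free 1 or any Rb-null array (0.0646 to 0.129), and the Rhob call without any single array but wild-type serum 1 (0.0772 to 0.272). With wild-type serum 1 left out the list had 4 genes called, all lower, and a median of -0.15. That fit called 119 of 9654 probe sets lower.

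Igfbp3, Clu and Ctsh rose in the wild-type line, while in the Rb-null line, where the level of each in serum was higher, Igfbp3 fell and Clu and Ctsh did not pass the test. Igfbp3, which binds insulin-like growth factors in the medium, read 508, 458 and 438, then 717 and 719 in the wild-type line, and 2837 and 2809, then 2012 and 1736 in the Rb-null line. All Rb-null arrays were above all wild-type arrays, and the media separated in opposite directions. It rose 1.54-fold and fell 1.51-fold (interaction -1.22, SE 0.14, adjusted p = 0.00631), while its other probe set stood at -0.54 (adjusted p = 0.157). Clu, which encodes the secreted chaperone clusterin, read 1972, 1689 and 1801, then 3583 and 4118 in the wild-type line, and 7301 and 6586, then 6799 and 5968 in the Rb-null line. Its Rb-null media overlapped, and its wild-type media did not. Clu rose 2.11-fold in the wild-type line and stood at -0.12 (adjusted p = 0.586) in the Rb-null line, with interactions of -1.20 (SE 0.14, adjusted p = 0.00731) and, on the other probe set, -1.22 (SE 0.22, adjusted p = 0.0481). Ctsh, the lysosomal protease cathepsin H, read 828, 769 and 745, then 1180 and 1320 in the wild-type line, and 2235 and 2355, then 2231 and 1872 in the Rb-null line (interaction -0.84, SE 0.15, adjusted p = 0.0368). The Igfbp3 call was lost without any of the wild-type serum-free or Rb-null serum arrays (0.0527 to 0.0661). The first Clu call was lost without wild-type serum-free 2 (0.0661) or Rb-null serum 1 (0.0660), the second without any single array but wild-type serum 1 and Rb-null serum-free 1 (0.0718 to 0.272), and the Ctsh call without any but wild-type serum 1 and Rb-null serum-free 1 (0.0674 to 0.237).

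Tnc and Sparc, genes of the extracellular matrix, fell in the Rb-null line. Tnc encodes tenascin-C, a matrix glycoprotein of growing and wounded tissue. On the brighter of its probe sets it read 178, 173, 173, 152 and 145 on the wild-type arrays, all below the floor, and 1269 and 1327 in serum and 299 and 316 without serum in the Rb-null line. The Rb-null serum arrays stood far above all others. Tnc fell 4.22-fold and 4.35-fold on its probe sets in the Rb-null line, the second a bound because 1 serum-free array lay at the floor, with interactions of -2.08 (adjusted p = 1.48e-05) and -2.12 (adjusted p = 1.16e-05). With no floor these were -1.85 (adjusted p = 0.000142) and -1.10 (adjusted p = 0.219). Sparc, a collagen-binding protein, read 186, 169 and 175, then 248 and 373 in the wild-type line, and 707 and 813, then 415 and 270 in the Rb-null line. Its wild-type serum arrays lay below the floor, its serum-free groups overlapped between the lines, and its serum groups did not (interaction -1.81, SE 0.29, adjusted p = 0.0254). The Sparc call was lost without wild-type serum 2 or 3, wild-type serum-free 2, either Rb-null serum array or Rb-null serum-free 2 (0.0548 to 0.176). Of 20 tested genes of the cadherin switch and mesenchymal matrix list, Tnc and Sparc were the 2 called, and the median was -0.15. Both were called lower, beside 0.475% of all probe sets. Fibronectin (Fn1) stood at -0.16 (adjusted p = 0.601) and Col1a1 at -0.19 (adjusted p = 0.739).

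Chemokine and interleukin-1 genes had mostly negative interactions. Cxcl1 and Cxcl5 attract neutrophils, Il1a is an alarm cytokine of epithelium, and Il1rn blocks the interleukin-1 receptor. Il1a read 214, 223 and 226, then 249 and 253 in the wild-type line, and 777 and 735, then 518 and 498 in the Rb-null line. All Rb-null arrays were above the wild-type ones, and the media did not overlap in either line. Il1a fell 1.49-fold in the Rb-null line (interaction -0.76, SE 0.10, adjusted p = 0.0140). Cxcl5 changed in opposite directions, by 0.36 and -0.33 (interaction -0.69, SE 0.12, adjusted p = 0.0330), with its wild-type serum arrays below the floor, and with no floor the interaction was -1.59 (adjusted p = 0.00852). Cxcl1 lay below the floor on all wild-type arrays on the called probe set and fell 1.60-fold in the Rb-null line (interaction -0.68, SE 0.11, adjusted p = 0.0227), against -0.27 (adjusted p = 0.500) on its brighter one. Il1rn read 163, 146 and 149, then 252 and 233 in the wild-type line, and 198 and 195, then 340 and 334 in the Rb-null line. Its serum arrays lay at or below the floor in both lines, so both rises, 0.30 and 0.77, are measured from the floor. Its interaction of 0.47 (SE 0.08, adjusted p = 0.0330) was 0.11 (adjusted p = 0.761) with no floor. Of 22 tested list members, each by its brightest probe set, 18 had a negative interaction, beside 5341 of all 9686 probe sets tested. Of the 22, 2 were called lower and 1 higher, beside 0.475% and 0.454% of all probe sets, and the median was -0.13. The Il1a call was lost without either Rb-null serum array, without either serum-free array of the wild-type line and without Rb-null serum-free 2 (0.0567 to 0.117), that of Cxcl5 without any but serum 1 and serum-free 1 of the wild-type line (0.0677 to 0.205), that of Cxcl1 without any but wild-type serum 1 and Rb-null serum-free 1 (0.0604 to 0.159), and that of Il1rn without any but wild-type serum 1 (0.0713 to 0.225).

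Blnk, Cdh6, Wfdc2, Krt6a and Sfn also had called lower interactions. Blnk, an adaptor protein best known from B-cell receptor signalling, rose in both lines and more in the wild-type line. It read 750, 645 and 622, then 2116 and 2145 in the wild-type line, and 1734 and 1899, then 2621 and 2419 in the Rb-null line. The wild-type serum arrays were below all others. The rise was 3.18-fold in the wild-type and 1.39-fold in the Rb-null line (interaction -1.20, SE 0.14, adjusted p = 0.00739), and the second probe set gave -1.05 (adjusted p = 0.0154). Cdh6, the adhesion molecule K-cadherin, read 473, 427 and 457, then 783 and 869 in the wild-type line, and 238 and 227, then 199 and 206 in the Rb-null line, the last close to the floor. It rose 1.82-fold in the wild-type line, with no overlap between media, and changed by -0.20 (adjusted p = 0.213) in the Rb-null line (interaction -1.06, SE 0.12, adjusted p = 0.00558). Wfdc2, a secreted protease inhibitor of glandular epithelium, read 8150, 8096 and 7936, then 7052 and 7014 in the wild-type line, and 5276 and 5102, then 2510 and 2013 in the Rb-null line. Its order ran from wild-type serum at the top to Rb-null serum-free at the bottom without overlap, and it fell 2.31-fold in the Rb-null line (interaction -1.01, SE 0.12, adjusted p = 0.00779). Krt6a, a keratin of activated epithelium, stood at -0.95 (SE 0.17, adjusted p = 0.0395) and on its other probe set at -0.77 (adjusted p = 0.239), and Sfn, the epithelial 14-3-3 protein that p53 induces, at -0.95 (SE 0.18, adjusted p = 0.0487, or 0.0528 with no floor). Krt6a and Sfn were the 2 genes called among 14 tested of the basal epithelium list, whose median was -0.09. Among all probe sets 0.454% were called higher and 0.475% lower. None of 12 genes of the luminal list was called, with a median of -0.14, and of 20 genes of the epithelial junction list 1 was called, higher, with a median of 0.03. The call was lost for Cdh6 without Rb-null serum 1 (0.0660), for Wfdc2 without any wild-type serum-free or Rb-null serum array (0.0567 to 0.0860), for Krt6a without any but wild-type serum 1 and 3 (0.0770 to 0.247), and for Sfn without any but wild-type serum 1 (0.0661 to 0.286). For the first Blnk probe set it was lost without either wild-type serum-free array or Rb-null serum 2 (0.0605 to 0.0839), and for the second without these, Rb-null serum 1 or Rb-null serum-free 2 (0.0643 to 0.123).

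Among the probe sets measured in both lines with a higher interaction, those of Fst and Anxa8 and one without a gene name kept their call whichever array was left out. Fst encodes follistatin, a secreted protein that binds and blocks activin. Its intensities were 3208, 2809 and 2633, then 558 and 574 in the wild-type line, and 790 and 786, then 403 and 396 in the Rb-null line. The Rb-null serum level lay far below the wild-type serum level, and none of the groups overlapped. Fst fell 5.08-fold in the wild-type and 1.97-fold in the Rb-null line (interaction 1.36, SE 0.14, adjusted p = 0.00426). Anxa8, a calcium-dependent membrane-binding annexin, read 1935, 1662 and 1717, then 2519 and 2608 in the wild-type line, and 570 and 547, then 1811 and 1930 in the Rb-null line. The Rb-null serum arrays were far below the rest, and the Rb-null serum-free arrays overlapped the wild-type serum arrays. It rose 1.45-fold in the wild-type and 3.35-fold in the Rb-null line (interaction 1.21, SE 0.12, adjusted p = 0.00433).

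**Figure D4:**
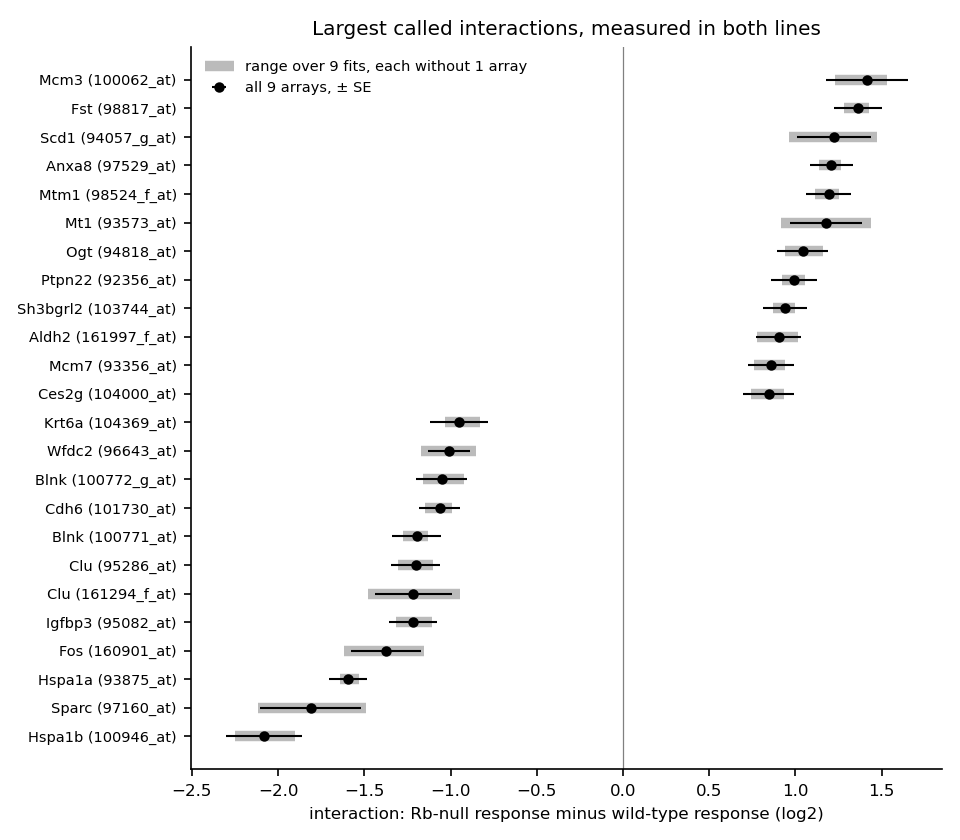
Interaction (Rb-null response minus wild-type response, log2) of the 12 highest and 12 lowest called probe sets that were measured in both lines and had 1 gene name. Points with thin lines give the value on all 9 arrays with its SE, and grey bars the range over 9 fits that each left out 1 array. No bar crosses 0, with Mt1, Scd1, Sparc and Fos among the widest. The probe sets were picked as the largest calls on these same arrays, so the bars are no test of stability.

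Nupr1, Mgst1, Mt1 and Ogt had called higher interactions with rises in the Rb-null line. Nupr1 encodes a small chromatin protein induced by amino acid shortage and by endoplasmic reticulum stress through ATF4 and CHOP. Its promoter is shown because it holds a C/EBP-ATF composite site, TGATGCAAT, read on both strands and chosen after the values were seen. The site occurs in the promoters of 0.222% of all genes, counted over a window that also holds the 50 bases after the start. The site, in capitals on the opposite strand, lies at positions -111 to -103 in the 250 bases before the start (chr7:126625471-126625720, minus strand, GRCm38.p6, RefSeq).
Nupr1: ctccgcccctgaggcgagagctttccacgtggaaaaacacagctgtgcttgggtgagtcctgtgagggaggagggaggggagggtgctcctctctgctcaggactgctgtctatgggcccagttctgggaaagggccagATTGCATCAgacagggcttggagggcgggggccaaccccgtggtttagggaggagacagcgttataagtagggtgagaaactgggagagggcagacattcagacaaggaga
Nupr1 read 120, 125 and 129, then 144 and 157 in the wild-type line, all below the floor, and 460 and 420, then 1078 and 1396 in the Rb-null line. It rose 2.79-fold in the Rb-null line without overlap (interaction 1.48, SE 0.16, adjusted p = 0.00433, or 1.22 and adjusted p = 0.0125 with no floor), and lost its call without wild-type serum-free 2 (adjusted p = 0.0513). Of the 23 tested genes of the amino acid starvation and ATF4-CHOP list, 6 rose and 3 fell in the wild-type line, and 12 rose and 0 fell in the Rb-null line. Over all probe sets tested, 6.61% rose and 9.25% fell in the wild-type line, and 7.5% rose and 6.42% fell in the Rb-null line. The interaction was positive in value for 20 of the 23 genes, beside 4345 of all 9686 probe sets, with a median of 0.21. It was called for Nupr1 alone, higher, beside 0.454% of all probe sets. Ddit3, which encodes CHOP, changed by 1.26 and 1.38 (interaction 0.11, adjusted p = 0.730), Trib3 by 0.96 and 1.22 (0.26, adjusted p = 0.644), and Asns, asparagine synthetase, by 0.20 and 0.45 (0.25, adjusted p = 0.364). Larger in value and short of the threshold were Vegfa, the vascular growth factor, at 1.22 (adjusted p = 0.118) and the tRNA synthetase Eprs at 0.60 (adjusted p = 0.0726). Without wild-type serum 1 the list's median was 0.18.

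Mgst1, a membrane-bound glutathione transferase, read 113, 88 and 76, then 196 and 242 in the wild-type line, and 126 and 80, then 698 and 577 in the Rb-null line. The serum arrays of both lines lay below the floor, and the Rb-null serum-free arrays stood above all others. Mgst1 passed the filter only with these serum-free arrays counted. With serum at the floor neither line could fall, so its p-value adds no support. It rose at least 3.23-fold in the Rb-null line, a bound set by the floor (interaction 1.54, SE 0.15, adjusted p = 0.00368), and kept its call without any single array, but with no floor the interaction was 1.41 (adjusted p = 0.105). Mt1, a metallothionein that binds zinc and copper, read 1161, 991 and 1035, then 963 and 1008 in the wild-type line, and 1157 and 1071, then 2808 and 1954 in the Rb-null line. The Rb-null serum-free arrays were above all others and the remaining groups overlapped (interaction 1.18, SE 0.21, adjusted p = 0.0397). Ogt, the enzyme that attaches N-acetylglucosamine to nuclear and cytosolic proteins, read 696, 612 and 613, then 628 and 540, against 597 and 554, then 1085 and 1076, and rose 1.88-fold in the Rb-null line (interaction 1.04, SE 0.15, adjusted p = 0.0162). The Mt1 call was lost without any but wild-type serum 1 and Rb-null serum-free 2 (0.0615 to 0.239), and the Ogt call without any wild-type serum-free or Rb-null array (0.0510 to 0.127).

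Scd1, the desaturase that makes monounsaturated fatty acids, fell at least 3.79-fold in the wild-type line, a bound because 1 serum-free array lay below the floor, and 1.63-fold in the Rb-null line. It read 671, 815 and 772, then 183 and 199 in the wild-type line, and 1189 and 1146, then 857 and 601 in the Rb-null line. The wild-type serum-free arrays were at the floor and below all others (interaction 1.22, SE 0.22, adjusted p = 0.0395), while its other probe sets gave 0.85 (adjusted p = 0.0681) and 0.57 (adjusted p = 0.428). The cholesterol synthesis gene Hmgcs1 stood at -0.14 (adjusted p = 0.826), and none of the 17 genes tested for cholesterol synthesis and uptake was called. Ptpn22, a tyrosine phosphatase, fell 2.35-fold in the wild-type line and read -0.24 (adjusted p = 0.164) in the Rb-null line (interaction 0.99, SE 0.13, adjusted p = 0.0140). Aldh2, the mitochondrial aldehyde dehydrogenase, read 184, 156 and 132, then 226 and 203 in the wild-type line, and 512 and 544, then 1168 and 989 in the Rb-null line. Its wild-type serum arrays lay below the floor, and its Rb-null media did not overlap. The interaction of 0.90 (SE 0.13, adjusted p = 0.0196) was 0.57 (adjusted p = 0.339) with no floor, and the other probe sets, at 0.62 and 0.58, were not called. Ndrg1, a gene of hypoxia and differentiation, rose 1.72-fold in the wild-type and 2.60-fold in the Rb-null line (interaction 0.59, SE 0.10, adjusted p = 0.0395, or 0.0544 with no floor), the carboxylesterase Ces2g stood at 0.84 (SE 0.15, adjusted p = 0.0368, or 0.0514 with no floor), and Sh3bgrl2 fell 1.46-fold in the wild-type and rose 1.32-fold in the Rb-null line (interaction 0.94, SE 0.13, adjusted p = 0.0140). Single arrays whose removal ended these calls numbered 7 for Scd1 (all but wild-type serum 1 and Rb-null serum-free 2, up to 0.233), 4 for Ptpn22 (the Rb-null serum and the wild-type serum-free arrays, up to 0.117), 5 for Aldh2 (the same 4 and wild-type serum 2, up to 0.139), 8 for Ndrg1 (all but wild-type serum 1, up to 0.220), 7 for Ces2g (all but wild-type serum 1 and 3, up to 0.237) and 5 for Sh3bgrl2 (the wild-type serum-free, the Rb-null serum arrays and Rb-null serum-free 2, up to 0.113).

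Mtm1, a lipid phosphatase, was called on both of its tested probe sets, which differed in form. One, with a family suffix that marks possible binding of related transcripts, fell 4.37-fold in the wild-type and 1.91-fold in the Rb-null line (interaction 1.19, SE 0.13, adjusted p = 0.00467). The other lay below the floor on the wild-type arrays and rose 1.97-fold in the Rb-null line (interaction 0.98, SE 0.11, adjusted p = 0.00467), and with no floor its interaction was 0.72 and no longer called (adjusted p = 0.0783). Over all 79 genes with a called interaction, 25 had more than 1 tested probe set, 5 of them had at least 2 called, 18 had all their probe sets on 1 side of 0, and 0 had calls in both directions.

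Among the genes silent in the wild-type line, Ifi202b, a DNA-binding protein of the interferon-inducible family, read 50 to 55 on the wild-type arrays, and 374 and 354 in serum and 728 and 765 without serum in the Rb-null line. The Rb-null media did not overlap. It rose 2.05-fold there and kept its call without any single array (interaction 1.04, SE 0.09, adjusted p = 0.00254). Osbpl1a, an oxysterol-binding protein, rose 1.55-fold at 0.63 (adjusted p = 0.0156), while Man1a, a Golgi mannosidase, fell at least 1.52-fold at -0.61 (adjusted p = 0.0227), a bound because 1 serum-free array lay below the floor. Dsc2, a desmosomal cadherin, lay below the floor on all arrays but the Rb-null serum-free ones, at 277 and 266, and was at least 1.38-fold higher there than in Rb-null serum (interaction 0.46, adjusted p = 0.0199). Dsc2 passed the filter only through these arrays, so its sign was fixed in advance and its p-value adds no support. With no floor the interactions were 0.68 for Osbpl1a, -0.0089 for Man1a and 0.31 for Dsc2, none called. Unlike that of Ifi202b, the calls of these 3 genes were not kept whichever array was left out. Over the fits without 1 array the interaction ran from 0.57 to 0.69 for Osbpl1a and from -0.70 to -0.51 for Man1a.

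Silent in the Rb-null line were 4 called genes, and there the interaction is the wild-type response with its sign turned. Peg3, an imprinted zinc finger gene, read 1062, 1173 and 795, then 438 and 293 in the wild-type line, and 83 to 94 in the Rb-null line. It fell 2.78-fold in the wild-type line (interaction 1.48, SE 0.28, adjusted p = 0.0487), with 0.96 (adjusted p = 0.0769) and 0.09 (adjusted p = 0.763) on its other probe sets. Of the other 3, each with at least 1 wild-type array below the floor in 1 medium, the folds are bounds. Slc1a5, a glutamine transporter, fell at least 1.64-fold (interaction 0.72, adjusted p = 0.0128). Pla2g7, a lipoprotein-associated phospholipase, rose at least 1.48-fold (interaction -0.57, adjusted p = 0.0275), and the transcription factor Sim2, with all wild-type serum arrays below the floor, rose at least 1.35-fold (interaction -0.43, adjusted p = 0.0254). Sim2 passed the filter only through the wild-type serum-free arrays, so its sign was fixed in advance and its p-value adds no support. With no floor none of the 4 passed, at 1.37 for Peg3 (adjusted p = 0.0667), 0.75 for Slc1a5 (0.0559), -0.76 for Pla2g7 (0.179) and -0.56 for Sim2 (0.139). None of the 4 calls was kept whichever array was left out. Over the fits without 1 array the interaction ran from 1.19 to 1.78 for Peg3, 0.63 to 0.81 for Slc1a5 and -0.61 to -0.52 for Pla2g7.

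Most gene lists held few or no calls. In the 34 lists, DNA replication, immediate-early genes, heat shock proteins, the chemokine list, the mesenchymal list and the basal epithelium list had 2 or 3 called members each, and the others 1 or 0. Of all probe sets tested, 0.454% were called higher and 0.475% lower. List medians ran from -0.20 for immediate-early genes to 0.21 for the ATF4-CHOP list, beside -0.02 for all probe sets, of which 4345 were positive and 5341 negative. These are counts and medians, and no list is set apart from other genes by them. Under the other scalings, values as deposited and arrays scaled to a common median, the medians of the replication, immediate-early and ATF4-CHOP lists kept their signs.

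**Figure D5:**
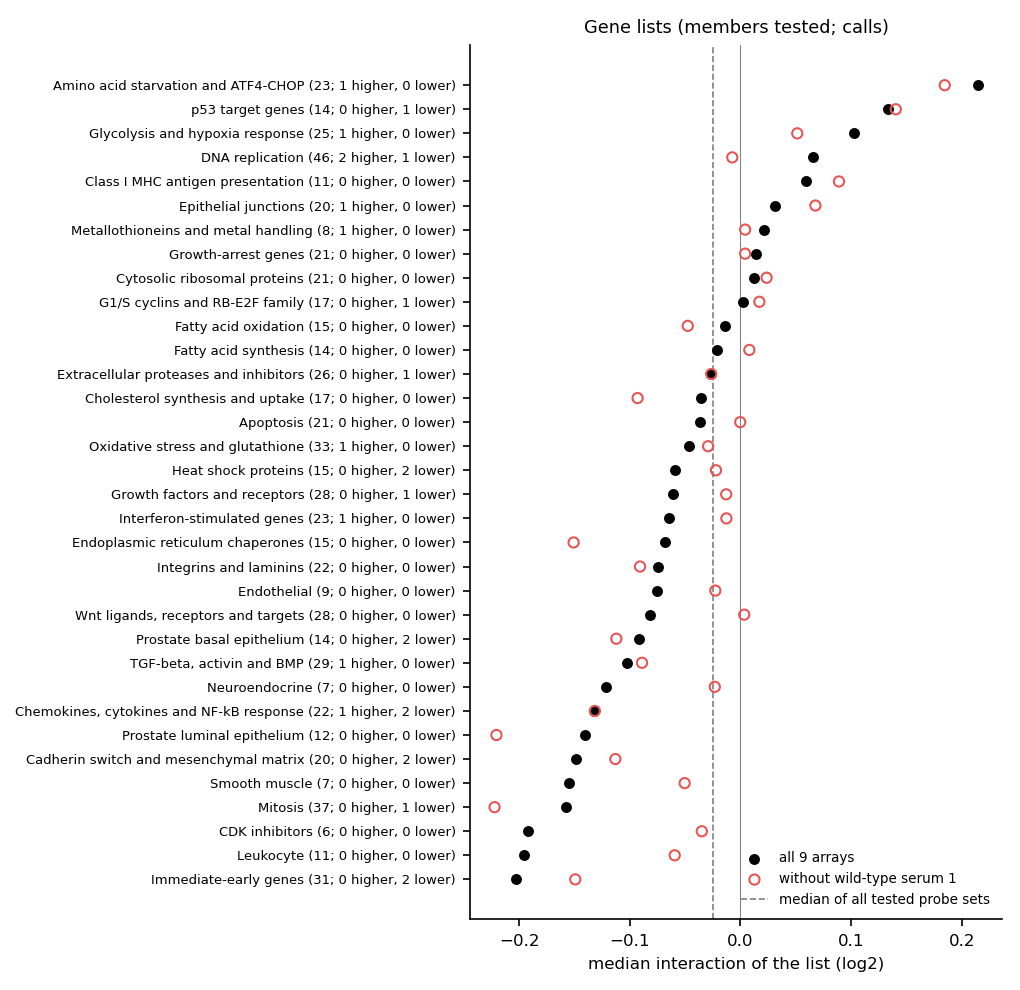
Median interaction (log2) of each of the 34 gene lists on all 9 arrays (filled) and without wild-type serum 1 (open), with the median of all tested probe sets dashed; labels give the members tested and the calls in each direction. The ATF4-CHOP list lies furthest to the right at 0.21, and the replication list moves from 0.07 to -0.01 when that array is left out.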

How the data were processed

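Total RNA from 9 samples of 2 mouse prostate epithelial cell lines was read on single-channel arrays. The deposited values were linear intensity values, 1 per probe set and array, with software and scaling not given in the sources used here. Upper quartiles of the arrays spanned 0.22 on the log2 scale, above the limit of 0.1 set for it, so the values were quantile normalised, raised to a floor at percentile 25 (197) and taken to log2. Quantile normalisation assumes equal distributions and the floor hides changes below it. Of 12422 probe sets, 1 was empty and 9686 lay above the floor on at least 2 arrays and were tested. Symbols came from the platform annotation, updated through RefSeq gene identifiers: 10833 probe sets had 1 gene, 396 several and 1193 none.

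A fit of 4 group means in limma 3.58.1 (R 4.3.3), with an intensity trend, 5 residual and 4.20 prior degrees of freedom, gave both withdrawal responses and the interaction. Tests were two-sided, adjusted by Benjamini-Hochberg over all 9686 probe sets, with a threshold of 0.05. Values without a unit are log2 differences, with standard errors (SE). The procedure was tested on simulated data.

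Named genes were, among calls with 1 symbol, the 12 highest and 12 lowest measured in both lines, up to 4 per direction in each silent class, up to 6 per direction with opposite responses, up to 3 per list, and fixed genes of the Rb pathway and of withdrawal. Genes outside that rule (Pkhd1 and members of the lists described by value) were chosen after their values were seen. Lists held 1 probe set per gene, the brightest. Members and lists were chosen with earlier results of these data known. Alternatives were other scalings, floors, filters, variance models, the replicate block, array weights and leaving out each array. The labels name no shared batch for the replicate numbers, so these were not taken as pairs. Deviations of same-numbered arrays from their group means correlated at -0.231 to 0.331 over 12 pairs. The 2 above 0.1 were both of wild-type serum with Rb-null serum-free. In groups of 2 arrays the deviations mirror each other, so the 12 pairs are not independent and cannot decide whether the numbers are pairs.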

Additional observations from a re-analysis of the deposited data

Results flagged for a closer look

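Every named gene with a called interaction is a gene whose withdrawal response differed between the lines by the test of the difference itself (limma, adjusted p under 0.05), and was marked for a closer look for that reason. No explanation was weighed.

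Lower in the Rb-null line and measured in both lines were the chaperones Hspa1b at -2.08 and Hspa1a at -1.59, the matrix protein Sparc at -1.81, Fos at -1.37, Igfbp3 at -1.22, Clu at -1.20 and -1.22, Blnk at -1.20 and -1.05, Cdh6 at -1.06, Wfdc2 at -1.01, Krt6a at -0.95, Sfn at -0.95, Ctsh at -0.84, Il1a at -0.76, Rhob at -0.71, Cxcl5 at -0.69, Birc5 at -0.62 and Ccnd1 at -0.43. Dbf4, at -1.11, lay between the classes. Its serum-free arrays lay below the floor in both lines, so its value holds the difference between the lines in serum. With no floor it was 0.07.

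Higher in the Rb-null line and measured in both lines were Mcm3 at 1.42 and 0.83, Fst at 1.36, Scd1 at 1.22, Anxa8 at 1.21, Mtm1 at 1.19, Mt1 at 1.18, Ogt at 1.04, Ptpn22 at 0.99, Sh3bgrl2 at 0.94, Aldh2 at 0.90, Mcm7 at 0.86, Ces2g at 0.84, Rfc1 at 0.70, Ndrg1 at 0.59 and Il1rn at 0.47. Mgst1, at 1.54, lay between the classes. The wild-type serum arrays of Sparc, Cxcl5, Aldh2 and Il1rn lay below the floor. For Il1rn the Rb-null serum arrays lay at or below it too, and with no floor its interaction was 0.11. For Mgst1 the serum arrays of both lines lay below the floor, so neither line could fall. It passed the filter only with the Rb-null serum-free arrays counted.

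With the wild-type line silent, the values were -2.12 and -2.08 for Tnc, -0.68 for Cxcl1, -0.61 for Man1a, 0.46 for Dsc2, 0.63 for Osbpl1a, 0.98 for the second Mtm1 probe set, 1.04 for Ifi202b and 1.48 for Nupr1. With the Rb-null line silent, they were -0.57 for Pla2g7, -0.43 for Sim2, 0.72 for Slc1a5 and 1.48 for Peg3. In these genes the difference between lines rests on the floor as well as on the measured line. Dsc2 and Sim2 were tested only because of the group that lay above the floor, so their signs were fixed in advance.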

How the results depend on the processing

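The array weights quoted here were estimated by a procedure that stopped before its convergence tolerance. The count of 90 called interactions was 52 with no floor, 57 with the floor at percentile 10, 57 without the intensity trend and 397 with array weights, against 65 to 128 under the other single changes of scaling, floor, filter or prior. Probe sets measured in both lines gave 61 calls, 40 with no filter and 332 with array weights. Array weights also gave 31 instead of 8 opposite responses, 85 instead of 25 calls in the gene lists, and 2662 instead of 1536 and 2184 instead of 1348 withdrawal calls in the wild-type and Rb-null lines. With the replicate number as a block, the fit called 51 interactions (60.8% higher, against 48.9%), 36 of them measured in both lines, and 15 in the lists. The numbers share no known pairing, and 43 of the 51 were among the 90. The cause of these shifts was not tested.

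Leaving out 1 array gave 12 to 255 interactions, 8 to 208 measured in both lines, 1 to 23 opposite responses, 6 to 59 list calls, 667 to 1963 wild-type and 497 to 2280 Rb-null withdrawal calls. Without wild-type serum 1 and with no floor, chosen after seeing the data, there were 216 interactions, 191 measured in both lines, 25 opposite, 57 in lists and 2355 Rb-null withdrawal calls. Dbf4 turned from -1.11 to 0.0748 with no floor and to 0.0159 without wild-type serum 1 as well, and Man1a to 0.0414 in the latter; below the floor the order of intensities has no detection call behind it. Of the 50 named calls, 39 held with values as deposited, 32 with no floor and 32 with the block, and all 50 without wild-type serum 1. No gene had calls in both directions under the settings run.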
